A study of Oryza sativa with 10 samples.

Results

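The root transcriptomes of the OsNAC10 line and the OsNAC5 line were compared directly with each other. The 4 libraries concerned, 2 of each line, were taken by their sample titles from the 10 root libraries of the series, and the 2 libraries of the non-transgenic control (NT) are given beside them for orientation only. Where a group is called the highest or lowest, NT, OsNAC5 and OsNAC10 are compared, and not the OsNAC6 and OsNAC9 lines of the series. In the OsNAC10 line, RCc3:OsNAC10-myc, the coding sequence of OsNAC10 (Os11g0126900) was expressed with a MYC tag at its C-terminal end. In the OsNAC5 line, RCc3:myc-OsNAC5, that of OsNAC5 (Os11g0184900) carried the tag at its N-terminal end, so the place of the tag differed together with the gene and their parts cannot be told apart. Both transgenes were driven by the promoter of RCc3, a gene expressed in roots, and were introduced together with the herbicide resistance gene Bar. NT was the untransformed cultivar Illmi, the background of both lines, and carried neither transgene nor Bar. Roots were taken from seedlings with an age of 20 days on the labels. The methods describe seedlings kept under water for the last days before harvest, whereas the labels speak of normal growth conditions, and which holds for these libraries is not known. The lines were chosen by the study for high amounts of tagged protein. The sources used here do not state how many transgenic lines or plants stood behind a library, so the comparison is one between plant lines and not between the OsNAC genes alone.

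NAC proteins are plant-specific transcription factors that bind DNA through a conserved domain at the N-terminal end and activate or repress target genes through a variable C-terminal part. Several rice members respond to drought, salt and abscisic acid, a hormone of water deficit, and overexpression in roots has been used to alter root growth and drought tolerance. Roots also form barriers of lignin and suberin, take up water through aquaporins and make antimicrobial diterpenoids, and the gene lists described here follow these functions.

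The values were FPKM, which relate the fragments of a transcript to its length and to the library's mapped total, of 41635 annotated transcripts from 37869 loci. Of these, 33178 transcripts were above 0 in all 10 libraries and were tested with limma on log2(FPKM + 1), and a transcript was called when the Benjamini-Hochberg adjusted p was under 0.05 and the difference was at least 1.5 fold. A log2 difference is always OsNAC10 minus OsNAC5, is given ± its standard error with 2 libraries per line, and understates the difference of transcripts with low FPKM. Total FPKM per library lay between 730218 and 789304, and the deposited tables do not hold read numbers. Read from the lowest values, the depth relative to NT replicate 1 was 1.19 and 1.23 in the OsNAC5 libraries and 1.48 and 1.24 in the OsNAC10 libraries. The replicates correlated at 0.992 in OsNAC5 and 0.994 in OsNAC10 on the log2 scale, and libraries of different lines correlated at 0.970 to 0.979. In a whole-root sample, fewer cells of a type and less RNA per cell cannot be told apart.

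Of the tested transcripts 7.8% were called. Of these, 725 were higher in OsNAC10 than in OsNAC5 (2.19% of those tested) and 1864 were lower (5.62%). The 4 libraries did not overlap for any of the 2589 called transcripts, but the calls were chosen on these same libraries, so this adds no separate support. Differences of at least 2 fold were found for 204 of the higher and 697 of the lower transcripts, and differences of at least 4 fold for 34 and 58. Lower transcripts thus made up the larger share of the calls. Higher transcripts were 28.0% of all calls with FPKM as deposited and 43.6% after each library was centred on its median, when 1187 transcripts were higher and 1538 lower. The median log2 difference of all tested transcripts was −0.01 as deposited and 0.07 after centring. The counts also depended on single libraries. The higher calls fell to 363 without OsNAC5 replicate 2 and to 296 without OsNAC10 replicate 2, and the lower calls to 1216 without OsNAC5 replicate 1, 783 without OsNAC5 replicate 2 and 878 without OsNAC10 replicate 2. At an unadjusted limma p under 0.05 with any fold, 9669 of the 33178 tested transcripts passed in either direction. List counts at that limit are to be read beside this share.

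**Figure D1:**
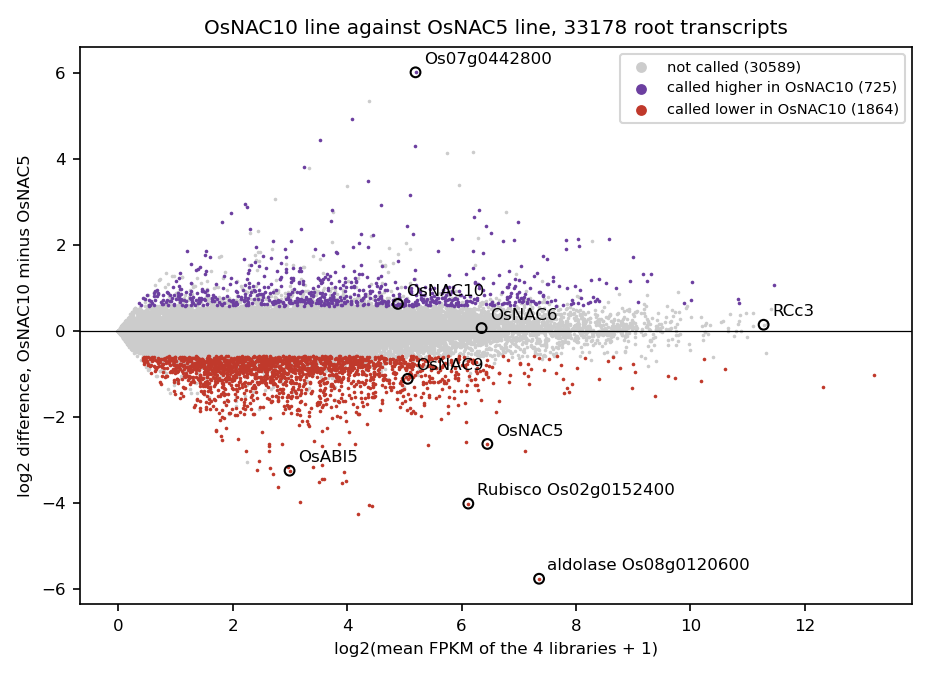
Log2 difference between the OsNAC10 and OsNAC5 lines (y axis) against the log2 of the mean FPKM of their 4 libraries plus 1 (x axis), with 1 point per tested transcript. Of the circled genes, OsNAC5, OsABI5 and OsNAC9 lie below 0 among the called transcripts, OsNAC10 lies just above the fold threshold, and OsNAC6 and RCc3 lie near 0.

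The NT libraries, which were not part of the test, did not fall between the lines for most of the lower transcripts. Of the 1864 transcripts lower in OsNAC10, the NT mean lay above both lines for 1036, between them for 732 and below both for 96. For most of these transcripts OsNAC5 was therefore nearer to NT. Of the 725 higher transcripts, the NT mean lay between the lines for 374, below both for 305 and above both for 46.

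The transgenes were examined first. OsNAC5, read as its highest transcript Os11t0184900-02 on chromosome 11, stood at 145 and 154 FPKM in the OsNAC5 line and at 22.9 and 23.8 FPKM in the OsNAC10 line, with 46.1 and 44.5 FPKM in NT. The line that carries the OsNAC5 transgene was the highest and the OsNAC10 line the lowest, with NT between them in both libraries. The log2 difference was −2.63 ± 0.10 (adjusted p = 1.4e-05), and it remained called under all alternatives that were run. OsNAC10, Os11t0126900-01 on chromosome 11, was read at 35.1 and 34.7 FPKM in its own line, at 22.4 and 22.1 FPKM in the OsNAC5 line and at 27.4 and 27.1 FPKM in NT. Its own line was the highest, but the difference was small at a log2 value of 0.63 ± 0.07 (adjusted p = 0.0018), close to the threshold of 1.5 fold, and it was called under all alternatives that keep this threshold but not at a threshold of 2 fold. Reads of a transgene and of the native gene share the coding sequence and cannot be told apart in these values.

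The other OsNAC genes of the series differed in direction. OsNAC9, Os03t0815100-01, stood at 40.6 and 48.7 FPKM in OsNAC5 and at 19.3 and 20.7 FPKM in OsNAC10, against 50.1 and 49.8 FPKM in NT, a log2 difference of −1.12 ± 0.21 (adjusted p = 0.013) that was no longer called without OsNAC5 replicate 2, OsNAC10 replicate 1 or OsNAC10 replicate 2. OsNAC6, Os01t0884300-01, was not called, with 76.0 and 81.2 FPKM in OsNAC5 and 75.9 and 89.0 FPKM in OsNAC10. RCc3 itself, whose promoter drives both transgenes, was read at 2367 and 2353 FPKM in OsNAC5 and at 2545 and 2667 FPKM in OsNAC10, a log2 difference of 0.14 ± 0.17 that missed the threshold (adjusted p = 0.62). Marker genes of roots were read in all libraries shown. Lsi1 and Lsi2, the silicon influx and efflux transporters of rice roots, stood at 722 and 715 against 955 and 996 FPKM (Os02t0745100-01) and at 302 and 356 against 302 and 300 FPKM (Os03t0107300-01) in OsNAC5 against OsNAC10, and neither difference was called (adjusted p = 0.14 and 0.75).

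OsABI5, a bZIP factor that binds abscisic acid response elements and acts downstream of that hormone, differed most among the genes of the abscisic acid list. Os01t0859300-01 on chromosome 1 was read at 14.0 and 12.8 FPKM in OsNAC5, at 0.514 and 0.509 FPKM in OsNAC10 and at 1.26 and 1.44 FPKM in NT. The lines stood on opposite sides of NT, and the log2 difference was −3.25 ± 0.11 (adjusted p = 7.4e-06). The locus is also on the list of loci bound by the OsNAC proteins, and the region of its promoter that precipitated with the MYC antibody in the OsNAC6 line is shown here because it holds the letters of the motifs CACG and CATGTG, known from the DNA sites of NAC proteins, side by side. The capitals mark these motifs on either strand in the region on chromosome 1 of IRGSP-1.0 (chr1:37173201-37173400).
OsABI5 promoter region: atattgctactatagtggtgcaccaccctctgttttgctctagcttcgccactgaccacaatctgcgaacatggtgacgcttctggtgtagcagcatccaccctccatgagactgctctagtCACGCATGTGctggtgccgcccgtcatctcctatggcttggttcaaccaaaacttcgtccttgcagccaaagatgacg

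Of the 41 promoter regions of that length in the part of the study's table used here, 80.5% held CACG and 19.5% held CATGTG on 1 strand or the other. These regions were not split by antibody. The second promoter region of this locus, 146 bases long and partly overlapping the first, held neither. It precipitated with an antibody against RNA polymerase II in the OsNAC9 line and not with the MYC antibody. A match describes letters and was not taken as a bound site.

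The largest differences in either direction were taken by rule, 12 loci each. Most loci higher in OsNAC10 had no described function. Os07t0442800-01, a conserved hypothetical protein on chromosome 7, stood at 0.0911 and 0.139 FPKM in OsNAC5, at 69.4 and 72.9 FPKM in OsNAC10 and at 0.917 and 0.819 FPKM in NT. It was close to unread in the OsNAC5 line and NT and plainly read in OsNAC10, with the largest log2 difference among the 24 loci (6.02 ± 0.08, adjusted p = 5.9e-08). Os04t0115200-01, another conserved hypothetical protein, went from 0.0654 and 0.0890 FPKM to 32.4 and 30.9 FPKM (4.92 ± 0.11, adjusted p = 1.3e-06) and was likewise low in NT (0.234 and 0.321 FPKM). Os11t0639850-00, Os10t0381601-01 and Os07t0275475-00, which lack a described function too, had log2 differences of 3.82, 2.96 and 2.89.

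Among the higher loci with a described product, the OsNAC5 line was the one that stood away from NT in several cases. Os03t0836800-01, similar to an IAA-amino acid hydrolase, an enzyme that frees the auxin indole-3-acetic acid from its amino acid conjugates, was read at 2.88 and 1.92 FPKM in OsNAC5 but at 31.9 and 42.0 FPKM in OsNAC10 and 36.7 and 37.7 FPKM in NT (3.48 ± 0.19, adjusted p = 7.0e-05). Os10t0552200-01, a lipid transfer protein-like gene whose class carries lipids to the cell wall, was read at 5.09 and 6.78 FPKM in OsNAC5 against 56.1 and 65.9 FPKM in OsNAC10 and 54.6 and 52.6 FPKM in NT (3.17 ± 0.21, adjusted p = 0.00017). In both genes OsNAC10 was at or near the level of NT and OsNAC5 was the lower line. The neighbours Os02t0765900-00, similar to ferredoxin-nitrite reductase, which reduces nitrite to ammonium, and Os02t0765925-00 followed another order, with NT between the lines. The first was read at 0.0301 and 0.0219 FPKM in OsNAC5, 1.49 and 1.64 FPKM in NT and 5.80 and 5.87 FPKM in OsNAC10 (2.74 ± 0.18, adjusted p = 0.00015).

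The last 3 of these 12 loci were called through a single transcript. Os03t0858400-02, Os01t0869900-02 and Os06t0247800-02 had log2 differences of 4.44, 4.30 and 2.92, while the sums over all transcripts of their loci differed by 0.67, 0.77 and 0.81. The call of the last was lost without OsNAC5 replicate 2 or either OsNAC10 library and when its locus was summed. Os01t0869900-02, a transcript of a kinase similar to SAPK4 of the family activated by abscisic acid and osmotic stress, was read at 10.2 and 0.0127 FPKM in the OsNAC5 libraries and at 61.5 and 69.4 FPKM in OsNAC10. The OsNAC5 libraries were far apart, and the call was lost without either OsNAC10 library and in 3 of the other alternatives. Fragments are divided between transcripts of a locus by estimation, and the part of this step in these values was not tested.

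The largest differences in the other direction included enzymes of primary metabolism, and for most of these OsNAC5 stood far above both NT and OsNAC10. Os08t0120600-01, similar to cytosolic fructose-bisphosphate aldolase of glycolysis, was read at 288 and 353 FPKM in OsNAC5, 4.18 and 5.65 FPKM in OsNAC10 and 38.2 and 40.0 FPKM in NT (−5.77 ± 0.19, adjusted p = 5.8e-06). The lines lay on opposite sides of NT. Os03t0183600-00, similar to alanine aminotransferase, which interconverts pyruvate and alanine, was read at 38.8 and 40.8 FPKM in OsNAC5, 1.52 and 1.32 FPKM in OsNAC10 and 3.56 and 3.64 FPKM in NT (−4.08 ± 0.13, adjusted p = 5.8e-06).

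Other genes of nitrogen and carbon assimilation followed the same order. Os03t0712800-02, similar to a root isozyme of glutamine synthetase, which fixes ammonium into glutamine, stood at 20.6 and 20.8 FPKM in OsNAC5, 1.03 and 0.971 FPKM in OsNAC10 and 1.13 and 1.49 FPKM in NT (−3.44 ± 0.18, adjusted p = 5.3e-05). Os02t0152400-01, similar to ribulose bisphosphate carboxylase, the carbon-fixing enzyme, stood at 125 and 134 FPKM in OsNAC5, 6.95 and 7.19 FPKM in OsNAC10 and 11.0 and 11.4 FPKM in NT (−4.02 ± 0.16, adjusted p = 1.4e-05). Of the photosynthesis genes, markers of green tissue, 2 of 35 tested transcripts were called lower and 1 was called higher, with a median log2 difference of −0.02. The single higher call was lost without any 1 of the 4 libraries. Their summed level was 189 and 194 FPKM in OsNAC5, 57.8 and 57.5 FPKM in OsNAC10 and 54.5 and 54.2 FPKM in NT, and most of the sum in OsNAC5 came from Os02t0152400-01.

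Other loci of this group were high in OsNAC5 beside NT and OsNAC10. Os04t0574700-01, of a family of C4-dicarboxylate and malic acid transporters, was read at 11.1 and 12.6 FPKM in OsNAC5 and at or below 0.125 FPKM in the libraries of OsNAC10 and NT (−3.64 ± 0.12, adjusted p = 5.8e-06). Os01t0293000-01, similar to S-adenosylmethionine synthetase, the source of the cell's methyl donor, was read at 28.9 and 26.8 FPKM in OsNAC5, 1.60 and 1.51 FPKM in OsNAC10 and 0.146 and 0.188 FPKM in NT (−3.50 ± 0.15, adjusted p = 2.6e-05), and was also high in the OsNAC6 line, at 39.8 and 28.7 FPKM. Os04t0565200-01, similar to a cis-zeatin O-glucosyltransferase, which converts a cytokinin into a storage form, was read at 20.2 and 22.3 FPKM in OsNAC5, 1.01 and 1.06 FPKM in OsNAC10 and 2.75 and 2.06 FPKM in NT (−3.45 ± 0.15, adjusted p = 2.8e-05), and was at 16.4 and 19.9 FPKM in the OsNAC9 line. The loci without a clear function, Os11t0241700-01 (a DUF538 protein), Os10t0118200-01, Os07t0153150-02 and Os05t0368100-00, had log2 differences of −4.26, −4.05, −3.98 and −3.54.

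The exception among the 12 was Os09t0482800-01, an EF hand protein of a class that binds calcium. It was read at 39.2 and 41.6 FPKM in NT, 18.7 and 21.1 FPKM in OsNAC5 and 0.874 and 0.783 FPKM in OsNAC10 (−3.51 ± 0.12, adjusted p = 8.0e-06), so that both lines were below NT and OsNAC10 was far below OsNAC5.

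**Figure D2:**
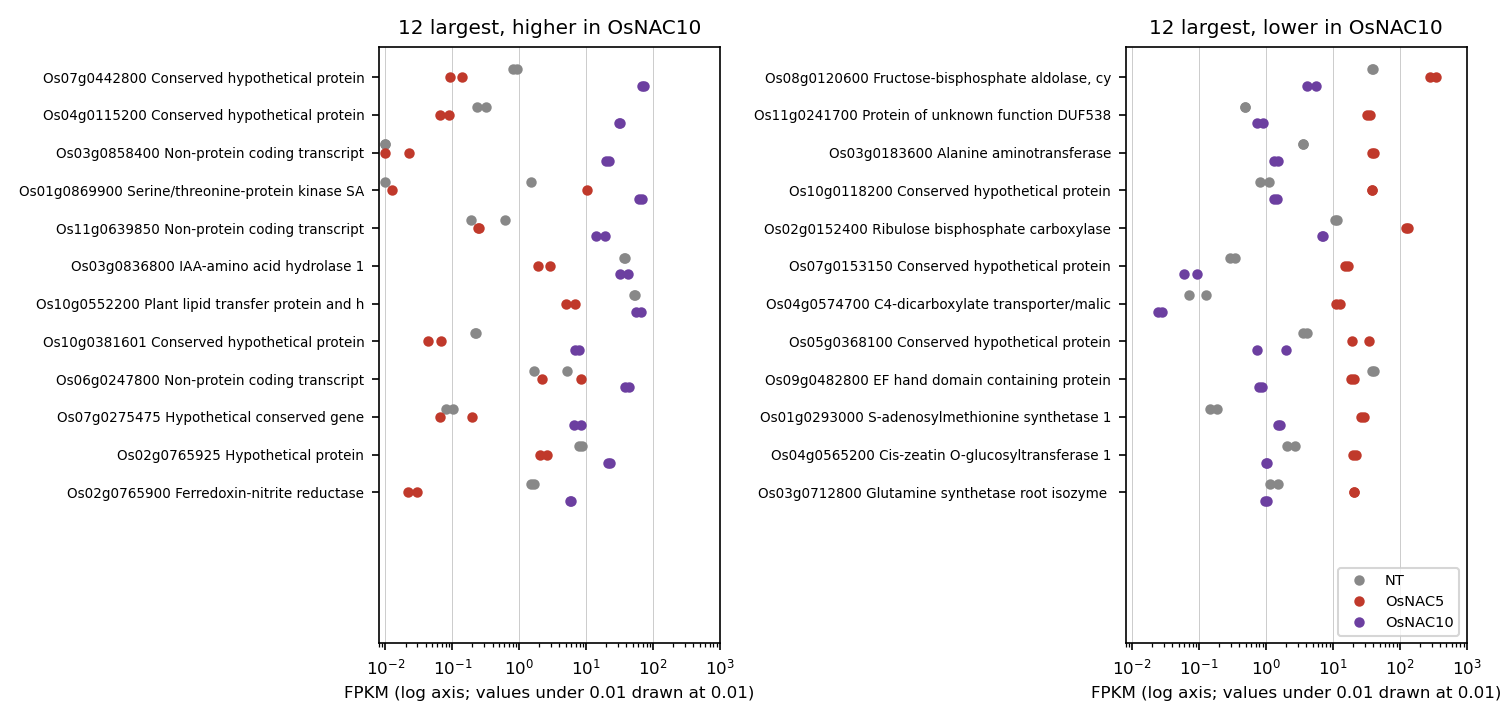
FPKM on a log axis in each NT, OsNAC5 and OsNAC10 library for the 12 loci with the largest difference in each direction, with 1 point per library. In the right panel OsNAC5 is the highest group of the 3 for 11 of the 12 loci, and NT is the highest for the EF hand protein Os09g0482800.

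Aquaporins, the water channels of the plasma membrane and the vacuole, were called in a single direction. Of 29 tested members 8 were higher in OsNAC10 (27.6%, against 2.19% of all tested transcripts) and 0 were lower, and the median log2 difference was 0.34 against −0.01 for all tested transcripts. At an unadjusted p under 0.05 and with any fold, 15 were higher and 3 lower in limma. In each of the 8, the NT mean was below that of OsNAC10. This is the usual order, since NT lay above both lines for only 46 of all 725 higher calls. Os01t0975900-02, similar to a tonoplast channel of the TIP1 type, was read at 8.20 and 7.71 FPKM in OsNAC5, 20.0 and 18.2 FPKM in OsNAC10 and 5.39 and 7.35 FPKM in NT (1.16 ± 0.18, adjusted p = 0.0062). Os04t0550900-00, the tonoplast channel TIP2-3, was read at 13.4 and 17.2 FPKM in OsNAC5, 34.9 and 32.1 FPKM in OsNAC10 and 21.1 and 22.2 FPKM in NT (1.09 ± 0.23, adjusted p = 0.021). Neither gene overlapped between the lines, but the call of the first was lost without OsNAC5 replicate 2 and that of the second without any 1 of the 4 libraries. Os04t0521100-01, named after its value was seen because it was the most abundant of the 8, was read at 154 and 150 FPKM in OsNAC5 and 296 and 313 FPKM in OsNAC10. Of the aquaporins, 5 were called without OsNAC5 replicate 1, 3 without OsNAC5 replicate 2 and 4 without OsNAC10 replicate 2. The summed level of the list was 3559 and 3694 FPKM in OsNAC5 and 4595 and 4911 FPKM in OsNAC10, with 3415 and 3502 FPKM in NT.

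WRKY factors, regulators best known from defence and stress responses, showed the opposite pattern. Of 87 tested transcripts 22 were lower in OsNAC10 (25.3%, against 5.62% of all tested) and 1 was higher, with a median log2 difference of −0.34. For 19 of these 22 the NT mean lay above both lines. Os02t0181300-01 was read at 101 and 101 FPKM in OsNAC5, 31.6 and 29.9 FPKM in OsNAC10 and 111 and 117 FPKM in NT (−1.68 ± 0.08, adjusted p = 3.7e-05). OsNAC5 was thus near NT and OsNAC10 was well below. Os06t0649000-01, similar to WRKY28, was read at 12.6 and 17.5 FPKM in OsNAC5 and at 2.62 and 3.40 FPKM in OsNAC10 (−1.99 ± 0.36, adjusted p = 0.013), a call that was lost without OsNAC5 replicate 2 or either OsNAC10 library. The single higher member, Os05t0129800-01, was read at 0.220 and 0.0918 FPKM in OsNAC5 and at 1.09 and 1.08 FPKM in OsNAC10. The number of lower WRKY transcripts was 11 without OsNAC5 replicate 2 and 12 without OsNAC10 replicate 2.

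AP2/ERF factors, which include the ethylene response factors and the DREB proteins of cold and drought responses, had 19 lower transcripts and 1 higher among 81 tested (23.5% lower), with a median of −0.16, and 16 lower and 3 higher after median centring. Os08t0474000-01, similar to RAP2.6, was read at 8.90 and 10.5 FPKM in OsNAC5, 0.628 and 0.707 FPKM in OsNAC10 and 12.8 and 14.2 FPKM in NT (−2.68 ± 0.17, adjusted p = 0.00013). Os09t0522000-01, similar to DREB1B, was read at 24.4 and 23.6 FPKM in OsNAC5, 2.60 and 3.54 FPKM in OsNAC10 and 16.4 and 16.9 FPKM in NT (−2.63 ± 0.21, adjusted p = 0.00039). For both, the OsNAC10 libraries were the lowest of the 6. A subgroup formed after the values were seen, the transcripts described as DREB1 proteins, had 4 of 5 tested members lower and a median of −1.72. Without OsNAC5 replicate 2, OsNAC10 replicate 1 or OsNAC10 replicate 2, the list had 10, 11 and 12 lower transcripts.

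NAC factors were also called more often in the lower direction, as were all tested transcripts. Of 65 tested transcripts 11 were lower (16.9%, against 5.62% of all tested) and 4 were higher (6.15%, against 2.19%). The lower ones include OsNAC5 and OsNAC9 and the higher ones OsNAC10. Os01t0816100-01 was read at 14.8 and 14.7 FPKM in OsNAC5 and at 5.60 and 6.32 FPKM in OsNAC10 (−1.18 ± 0.13, adjusted p = 0.0016). In the other direction, Os07t0683200-01 was read at 23.5 and 26.1 FPKM in OsNAC5 and at 48.6 and 50.9 FPKM in OsNAC10 (0.98 ± 0.11, adjusted p = 0.0014), with 26.0 and 27.1 FPKM in NT. The lower count was 7 without OsNAC5 replicate 1 or OsNAC10 replicate 1, 5 without OsNAC5 replicate 2 and 6 without OsNAC10 replicate 2. Of 106 bHLH transcripts 13 were lower (12.3%) and 1 was higher (0.943%). The largest difference there was in Os04t0301500-01, read at 8.05 and 8.93 FPKM in OsNAC5, 0.851 and 0.864 FPKM in OsNAC10 and 20.9 and 21.7 FPKM in NT (−2.35 ± 0.16, adjusted p = 0.00019). MYB factors stayed near the background, with 7 of 110 lower and 2 higher, and 4 lower ones without OsNAC5 replicate 2, without OsNAC10 replicate 2 or after median centring.

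Among the hormone lists, that of jasmonate, a hormone of wounding and defence, stood out by its counts. Of 44 tested transcripts 15 were lower in OsNAC10 (34.1%) and 1 was higher, with a median of −0.26, and the NT mean lay above both lines for all 15. Os03t0180900-01, a Tify domain protein of the family that holds the JAZ repressors of jasmonate signalling, was read at 26.1 and 29.9 FPKM in OsNAC5, 5.41 and 8.10 FPKM in OsNAC10 and 45.7 and 45.6 FPKM in NT (−1.92 ± 0.15, adjusted p = 0.00035). Its neighbour Os03t0181100-01 was read at 50.4 and 58.7 FPKM in OsNAC5, 12.7 and 15.9 FPKM in OsNAC10 and 72.4 and 75.4 FPKM in NT (−1.87 ± 0.16, adjusted p = 0.00045). The order NT, OsNAC5, OsNAC10 held in both without overlap. A subgroup formed after the values were seen, the Tify and ZIM proteins, had 10 of 17 tested transcripts lower and 0 higher. The exception was Os02t0218700-01, similar to allene oxide synthase, an enzyme of jasmonate synthesis, which stood at 3.61 and 4.24 FPKM in OsNAC5 and at 10.7 and 13.1 FPKM in OsNAC10 (1.39 ± 0.22, adjusted p = 0.0070), a call lost without OsNAC10 replicate 2. The list had 10 to 11 lower transcripts when single libraries were left out.

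In the list of abscisic acid genes and protein phosphatases 2C, 8 of 85 transcripts were lower (9.41%, against 5.62% of all tested). In the other direction 1 was higher (1.18%, against 2.19%). Beside OsABI5, Os06t0717800-02, similar to a protein phosphatase 2C, a class of negative regulators of abscisic acid signalling, was read at 32.3 and 31.7 FPKM in OsNAC5 and at 7.54 and 5.39 FPKM in OsNAC10 (−2.16 ± 0.31, adjusted p = 0.0048). Os06t0717800-01 of the same locus was not called, at 15.7 and 17.5 FPKM in OsNAC5 and 17.5 and 15.7 FPKM in OsNAC10. The sum of the locus differed by −1.05. The lower count of the list was 3 without OsNAC5 replicate 2 and 4 without OsNAC10 replicate 2. Of 11 ethylene synthesis transcripts 3 were lower (27.3%) and 0 were higher (3 and 1 at an unadjusted limma p under 0.05). Among the lower ones was ACC synthase 1, Os03t0727600-01, which makes the precursor of ethylene. It was read at 3.48 and 3.38 FPKM in OsNAC5 and at 1.16 and 1.18 FPKM in OsNAC10 (−1.03 ± 0.11, adjusted p = 0.0011). Without OsNAC5 replicate 2 or OsNAC10 replicate 2, 1 of the 3 was called.

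Auxin genes were called at about the background rate, with 4 of 149 higher and 6 lower. The lower count was 3 without OsNAC5 replicate 2, and the higher count was 2 without OsNAC5 replicate 1 or OsNAC10 replicate 2. Os02t0805100-01, similar to IAA12 of the Aux/IAA repressors, was read at 12.7 and 13.5 FPKM in OsNAC5 and at 4.15 and 4.25 FPKM in OsNAC10 (−1.44 ± 0.14, adjusted p = 0.00090). Cytokinin genes and response regulators had 1 higher and 1 lower member among 41, and 0 of either without OsNAC5 replicate 2 or OsNAC10 replicate 2.

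**Figure D3:**
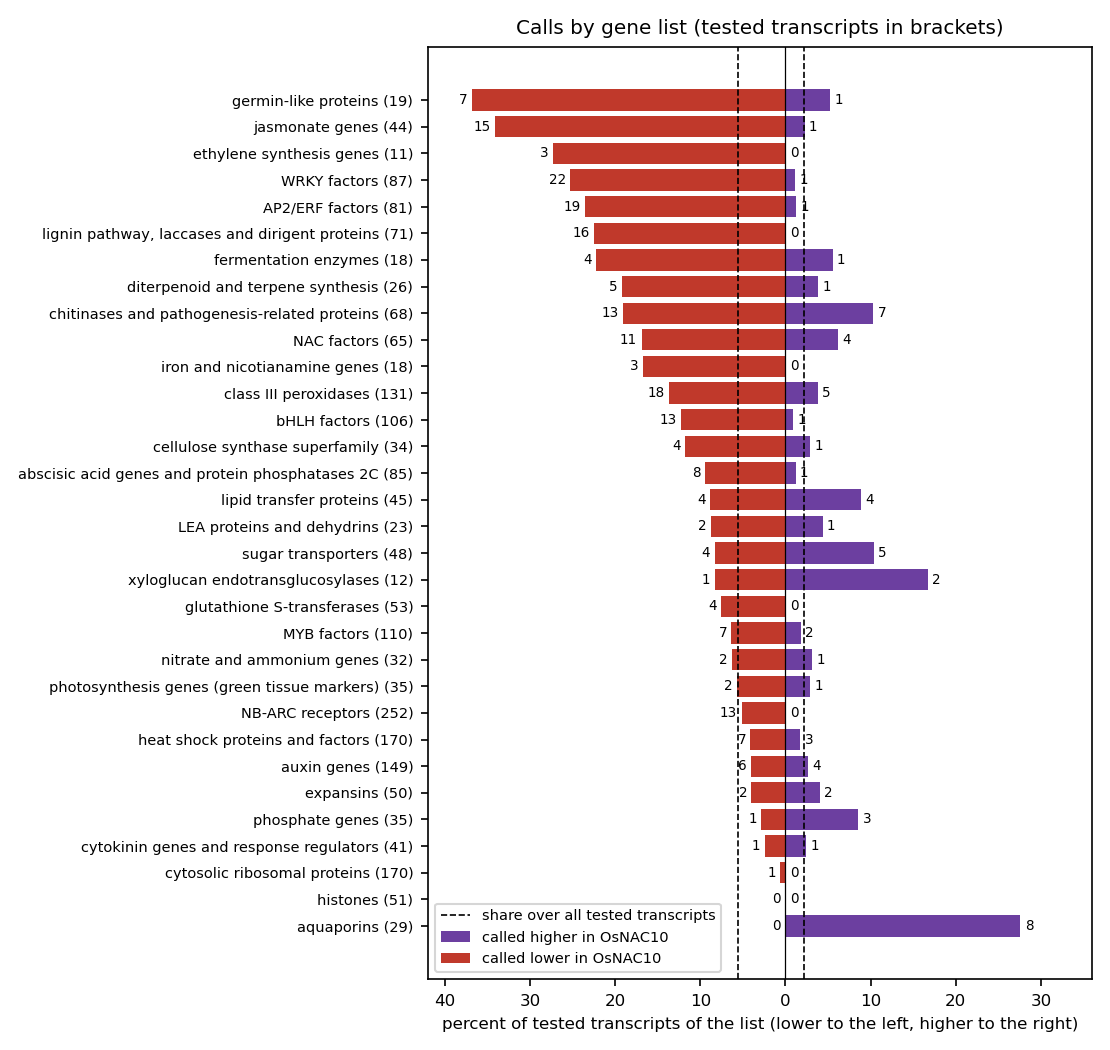
Share of the tested transcripts of each of 32 lists called lower (left) and higher (right) in OsNAC10 than in OsNAC5, in percent, with the number of transcripts at the end of each bar and the share over all tested transcripts as dashed lines (5.62% lower, 2.19% higher). Aquaporins are the list with the highest share on the right (27.6%), and germin-like proteins (36.8%) and jasmonate genes (34.1%) have the highest shares on the left.

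Genes of lignin synthesis, which stiffens root cell walls and seals the root barriers, were called lower with FPKM as deposited. Of 71 tested transcripts of the lignin pathway, laccases and dirigent proteins 16 were lower in OsNAC10 (22.5%) and 0 were higher, with a median of −0.14. At an unadjusted p under 0.05 with any fold, limma gave 24 lower and 6 higher, and after median centring 14 were called lower and 2 higher. For 13 of the 16 the NT mean lay above both lines. Os02t0808800-01, similar to cinnamoyl-CoA reductase, which makes the aldehydes that lead to lignin monomers, was read at 10.2 and 10.5 FPKM in OsNAC5, 0.263 and 0.218 FPKM in OsNAC10 and 30.2 and 31.6 FPKM in NT (−3.19 ± 0.10, adjusted p = 5.8e-06). Os08t0498400-01, similar to caffeoyl-CoA O-methyltransferase, a methylating enzyme of the same pathway, was read at 4.54 and 5.66 FPKM in OsNAC5 and at 0.589 and 0.653 FPKM in OsNAC10 (−1.91 ± 0.26, adjusted p = 0.0036). At the entry to the pathway, 6 of 11 tested transcripts of phenylalanine ammonia-lyase were lower and 0 were higher, a subgroup formed after the values were seen. The list had 10 lower transcripts without OsNAC5 replicate 2 and without OsNAC10 replicate 2.

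Class III peroxidases, secreted enzymes that among other functions couple lignin monomers, had 18 of 131 transcripts lower (13.7%) and 5 higher, and their median of 0.06 was above that of all tested transcripts. Os07t0677200-01 was read at 35.7 and 35.5 FPKM in OsNAC5 and at 11.6 and 10.5 FPKM in OsNAC10 (−1.61 ± 0.20, adjusted p = 0.0027). Os02t0236600-01, the peroxidase P7, was read at 82.0 and 86.8 FPKM in OsNAC5, 183 and 188 FPKM in OsNAC10 and 117 and 114 FPKM in NT (1.13 ± 0.07, adjusted p = 0.00013), so members of this list lay on both sides. After median centring 11 peroxidases were higher and 14 lower. The lower count was 6 without OsNAC5 replicate 2 and 7 without OsNAC10 replicate 2, and the higher count was 1 without OsNAC5 replicate 1 or OsNAC10 replicate 2 and 3 without OsNAC5 replicate 2. Expansins, which loosen cell walls, had 2 higher and 2 lower among 50. Their higher count was 1 without any 1 of the 4 libraries and 5 after median centring, and their lower count was 1 without OsNAC5 replicate 2 or OsNAC10 replicate 1. Of 12 xyloglucan endotransglucosylases, which cut and rejoin wall polymers, 2 were higher and 1 was lower, the last of which was lost without any 1 of the 4 libraries. Os11t0539200-01, similar to XET2, was read at 178 and 189 FPKM in OsNAC5 and at 305 and 296 FPKM in OsNAC10 (0.71 ± 0.10, adjusted p = 0.0049). Cellulose synthases and their relatives had 1 higher and 4 lower among 34, but 0 of either without OsNAC5 replicate 2, 1 lower without OsNAC10 replicate 2 and 2 lower after median centring. Lipid transfer proteins had 4 of 45 called in each direction. The lower count was 1 without OsNAC5 replicate 2 and 2 without OsNAC10 replicate 2, and the higher count was 2 without OsNAC10 replicate 2 and 7 after median centring. Beside the gene described above, Os07t0287400-01 was read at 85.5 and 92.9 FPKM in OsNAC5 and at 219 and 239 FPKM in OsNAC10 (1.35 ± 0.13, adjusted p = 0.00084).

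Germin-like proteins, a family of secreted proteins that includes the hydrogen peroxide-forming oxalate oxidases, had 7 of 19 transcripts lower in OsNAC10 (36.8%) and 1 higher, with a median of −0.45. Os02t0532500-01 was read at 117 and 126 FPKM in OsNAC5, 36.3 and 42.8 FPKM in OsNAC10 and 38.1 and 38.1 FPKM in NT (−1.60 ± 0.09, adjusted p = 7.2e-05). Os12t0154900-00, germin-like protein 12-3, was read at 9.24 and 8.24 FPKM in OsNAC5, 2.33 and 1.92 FPKM in OsNAC10 and 19.7 and 23.7 FPKM in NT (−1.64 ± 0.16, adjusted p = 0.00078). The first gene was therefore higher in OsNAC5 than in NT and OsNAC10, while for the second OsNAC10 was the lowest group. The lower count was 4 without OsNAC5 replicate 1 or OsNAC10 replicate 2 and 3 without OsNAC5 replicate 2 or OsNAC10 replicate 1. The oxalate oxidases Os03t0693900-00 and Os03t0694000-01, neighbours on chromosome 3 that were named after their values were seen, could not be tested because they were listed at 0 in both OsNAC10 libraries. They stood at 24.0 and 24.3 FPKM and at 16.9 and 19.6 FPKM in OsNAC5, and at no more than 0.299 FPKM in NT. Their means were higher still in the OsNAC6 line (33.1 and 26.5 FPKM) and the OsNAC9 line (42.6 and 51.8 FPKM).

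Chitinases and pathogenesis-related proteins, which attack fungal cell walls or mark a defence state, were called in both directions, with 13 of 68 lower (19.1%) and 7 higher (10.3%). Os11t0700900-02, a class III chitinase homologue, was read at 69.9 and 75.7 FPKM in OsNAC5, 11.4 and 9.94 FPKM in OsNAC10 and 45.5 and 44.1 FPKM in NT (−2.66 ± 0.18, adjusted p = 0.00016). Os12t0628600-01, similar to a thaumatin-like pathogenesis-related protein, was read at 4.57 and 6.03 FPKM in OsNAC5, 20.1 and 21.7 FPKM in OsNAC10 and 118 and 124 FPKM in NT (1.81 ± 0.17, adjusted p = 0.00076). In the thaumatin-like gene both lines were far below NT and OsNAC5 was the lower. The list had 7, 8 and 6 lower transcripts without OsNAC5 replicate 1, OsNAC5 replicate 2 and OsNAC10 replicate 2, and 3, 2 and 2 higher ones. The NB-ARC receptors, which sense pathogen effectors, had 13 of 252 lower and 0 higher (75 and 9 at an unadjusted limma p under 0.05), a lower share (5.16%) close to that of all tested transcripts, and 20 lower ones without OsNAC10 replicate 1, 7 without OsNAC5 replicate 2 and 6 without OsNAC10 replicate 2. Over all tested transcripts, 9669 of 33178 passed the unadjusted limit in either direction.

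The longest stretch of neighbouring loci called in 1 direction held genes of diterpenoid synthesis. A run was taken as at least 3 tested loci next to each other in the order of their identifiers, each with a called transcript in that direction and none in the other. There were 37 lower runs with 128 loci and 4 higher runs with 14 loci, out of 1825 and 704 loci called in a single direction. The longest run had 8 loci on chromosome 4, from Os04g0177600 to Os04g0180500, and contained enzymes that form syn-copalyl diphosphate and syn-pimaradiene, intermediates on the route to the momilactones, which are antimicrobial and allelopathic diterpenoids of rice.

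Syn-copalyl diphosphate synthase, Os04t0178300-02, was read at 4.72 and 5.32 FPKM in OsNAC5, 1.15 and 1.19 FPKM in OsNAC10 and 13.2 and 14.4 FPKM in NT (−1.47 ± 0.14, adjusted p = 0.00087). Syn-pimara-7,15-diene synthase, Os04t0179700-01, which acts next, was read at 3.66 and 3.94 FPKM in OsNAC5, 1.08 and 1.26 FPKM in OsNAC10 and 10.5 and 11.6 FPKM in NT (−1.15 ± 0.14, adjusted p = 0.0020). The cytochrome P450 99A2-like gene Os04t0180400-01 was read at 1.28 and 1.75 FPKM in OsNAC5, 0.204 and 0.398 FPKM in OsNAC10 and 3.40 and 4.04 FPKM in NT (−0.95 ± 0.13, adjusted p = 0.0039). The order NT, OsNAC5, OsNAC10 was the same in the 3 genes, without overlap.

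The dehydrogenase-like Os04t0179200-01 was read at 20.7 and 26.1 FPKM in OsNAC5 and at 4.89 and 6.40 FPKM in OsNAC10 (−1.88 ± 0.25, adjusted p = 0.0036). Os04t0178400-01, described as similar to CYP99A1, Os04t0179100-01 and Os04t0180500-00 had log2 differences of −0.78, −1.17 and −1.63, and the call of the first of these was lost without OsNAC5 replicate 2 or either OsNAC10 library. The run was shorter at its edge when transcripts were summed, since the actin-related Os04g0177600 entered by a minor transcript and its sum differed by −0.18. Over the whole list of diterpenoid and terpene synthesis, 5 of 26 transcripts were lower and 1 was higher, and 5 lower ones were called with any single library left out. Near-identical neighbours can share reads, and how the authors' counting divided such reads was not tested.

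The longest higher run had 5 conserved hypothetical loci on chromosome 6, from Os06g0513050 to Os06g0514100, and its values were large. Os06t0513943-01 was read at 142 and 136 FPKM in OsNAC5, 705 and 532 FPKM in OsNAC10 and 234 and 193 FPKM in NT (2.13 ± 0.15, adjusted p = 0.00024). The log2 differences of the other 4 loci, Os06t0513050-01, Os06t0513781-01, Os06t0513862-01 and Os06t0514100-01, were 2.45, 2.14, 2.11 and 2.23, so the 5 loci differed by nearly the same amount. Another higher run held 3 genes of small DVL peptides on chromosome 1, Os01t0525700-01, Os01t0525701-01 and Os01t0525800-01, with log2 differences of 0.71, 1.06 and 0.73. The calls of Os01t0525700-01 and Os01t0525800-01 were each lost without 2 of the 4 libraries and that of Os01t0525701-01 without any of them. The second lower run held 5 loci without described function on chromosome 6, Os06t0296967-00, Os06t0297300-00, Os06t0297350-00, Os06t0297400-03 and Os06t0297500-00, with log2 differences between −0.71 and −1.14. Of these, Os06t0297350-00 and Os06t0297400-03 remained called with any single library left out.

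**Figure D4:**
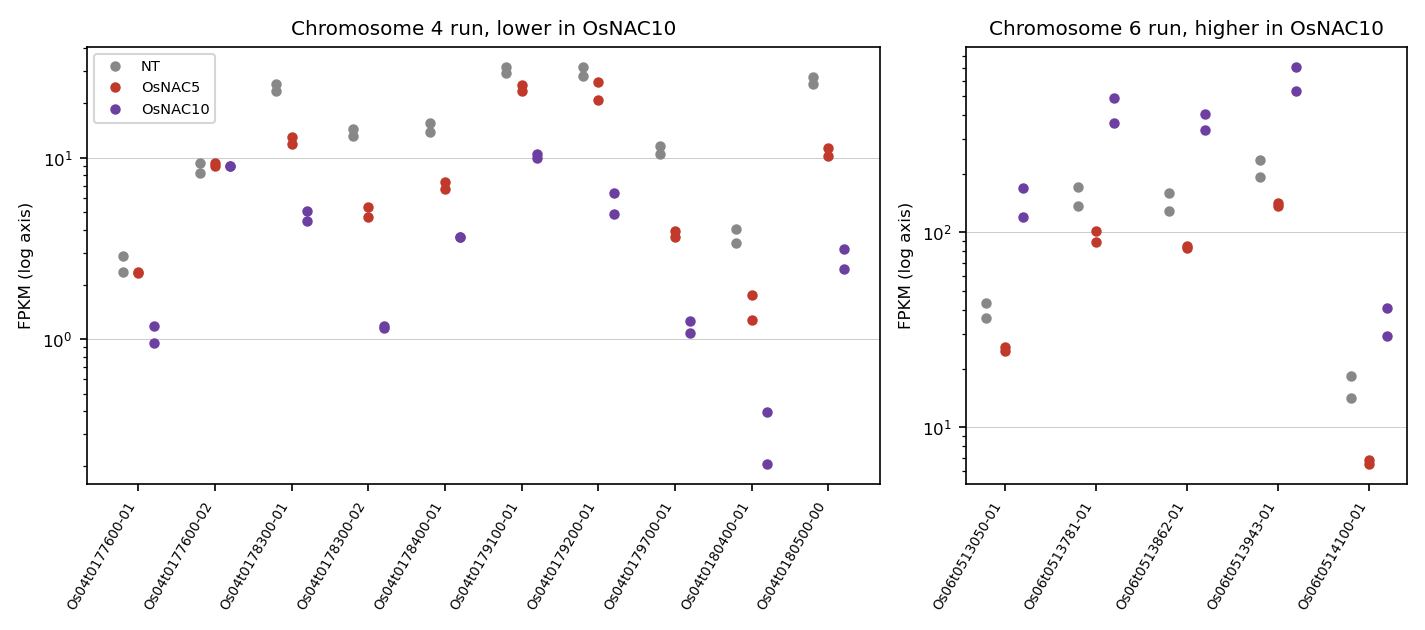
FPKM on a log axis in each NT, OsNAC5 and OsNAC10 library for the transcripts of the longest lower run (left, chromosome 4) and of the longest higher run (right, chromosome 6), in identifier order. On the left OsNAC10 is the lowest group for all transcripts except Os04t0177600-02, which was not called, and on the right OsNAC10 is the highest and OsNAC5 the lowest group throughout.

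Fermentation enzymes, which keep glycolysis running without oxygen, had 4 of 18 transcripts lower (22.2%) and 1 higher. The alcohol dehydrogenase 1 locus Os11g0210300, for the last enzyme of ethanol fermentation, was lower in both its transcripts. Os11t0210300-02 was read at 166 and 137 FPKM in OsNAC5, 39.2 and 41.1 FPKM in OsNAC10 and 215 and 224 FPKM in NT (−1.88 ± 0.11, adjusted p = 7.4e-05). Os11t0210300-01 was read at 62.0 and 60.1 FPKM in OsNAC5 and at 18.8 and 17.0 FPKM in OsNAC10 (−1.71 ± 0.10, adjusted p = 7.8e-05). A second alcohol dehydrogenase next to it, Os11t0210500-01, named after its value was seen, was read at 310 and 291 FPKM in OsNAC5, 137 and 136 FPKM in OsNAC10 and 518 and 548 FPKM in NT (−1.13 ± 0.10, adjusted p = 0.00058). In these genes NT was the highest and OsNAC10 the lowest group. Other alcohol dehydrogenases did not follow. A subgroup formed after the values were seen, the 11 tested alcohol dehydrogenase transcripts, had 4 lower, 1 higher and a median log2 difference of 0.09. The lower ones came from 3 loci. All calls of the list thus lay in alcohol dehydrogenases, and no other fermentation enzyme was called. In Os02g0637700, also described as similar to alcohol dehydrogenase 1, Os02t0637700-02 was called higher, at 6.16 and 11.5 FPKM in OsNAC5 and 15.1 and 17.9 FPKM in OsNAC10. Its transcript Os02t0637700-01 moved the other way without a call, from 20.4 and 17.1 FPKM in OsNAC5 to 12.6 and 12.0 FPKM in OsNAC10. The sum of this locus hardly differed (log2 difference 0.06). With transcripts summed per locus, or with only the 4 libraries of the lines in the fit, 0 members of the list were higher. The summed level of the list was 811 and 761 FPKM in OsNAC5, 437 and 451 FPKM in OsNAC10 and 1313 and 1378 FPKM in NT.

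Of the transport lists other than aquaporins, iron and nicotianamine genes had 3 of 18 transcripts lower (16.7%, against 5.62% of all tested) and 0 higher. The same count of lower transcripts was found with any single library left out. After quantile normalization 5 were lower and 1 higher. With unadjusted p under 0.05 and any fold, 8 were lower and 2 higher in limma. Os02t0649900-00, similar to the yellow stripe transporters that take up iron bound to phytosiderophores, was read at 95.3 and 98.5 FPKM in OsNAC5, 36.3 and 35.7 FPKM in OsNAC10 and 60.6 and 62.7 FPKM in NT (−1.41 ± 0.07, adjusted p = 3.7e-05). The lines lay on opposite sides of NT. Phosphate genes had 3 higher and 1 lower among 35, with 1 higher without OsNAC10 replicate 1. Os02t0139000-01, similar to a regulator of the phosphate starvation response, was read at 13.2 and 13.7 FPKM in OsNAC5, 30.8 and 29.5 FPKM in OsNAC10 and 19.3 and 19.5 FPKM in NT (1.11 ± 0.10, adjusted p = 0.00078). Sugar transporters had 5 higher and 4 lower among 48, but 1 lower with any single library left out and 1 higher without OsNAC5 replicate 2 or OsNAC10 replicate 2. Among them was Os03t0197100-01, a sugar transporter-like protein, at 1.27 and 1.11 FPKM in OsNAC5 and 6.08 and 5.98 FPKM in OsNAC10 (1.68 ± 0.15, adjusted p = 0.00068). Os05t0426000-01, of the MtN3 and saliva family to which the SWEET sugar exporters belong, was read at 2.00 and 2.29 FPKM in OsNAC5 and at no more than 0.0887 FPKM in OsNAC10 (−1.57 ± 0.12, adjusted p = 0.00026). Nitrate and ammonium genes had 1 higher and 2 lower among 32, with 1 lower without OsNAC5 replicate 1 and 0 lower without any other single library.

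Apart from the fermentation enzymes, the stress lists stayed near the background. Heat shock proteins and factors had 3 higher and 7 lower among 170, but 0 higher and 2 lower without OsNAC5 replicate 2 and 0 higher without OsNAC10 replicate 2. After median centring 6 were higher and 6 lower. Glutathione S-transferases had 0 higher and 4 lower among 53 (4 and 15 at an unadjusted limma p under 0.05), and 2 lower without OsNAC5 replicate 2, without either OsNAC10 library or after median centring. Among them was Os10t0530900-01 at 82.0 and 105 FPKM in OsNAC5 and 26.4 and 28.7 FPKM in OsNAC10 (−1.71 ± 0.16, adjusted p = 0.00069). LEA proteins and dehydrins, which protect drying cells, had 1 higher and 2 lower among 23. Os05t0542500-02, a LEA-like protein, was read at 12.7 and 14.5 FPKM in OsNAC5, 1.78 and 2.66 FPKM in OsNAC10 and 3.59 and 2.42 FPKM in NT (−2.19 ± 0.18, adjusted p = 0.00048). Among the genes of growing cells, 1 of 170 cytosolic ribosomal protein transcripts was lower and 0 were higher (10 and 14 at an unadjusted limma p under 0.05). Of 51 histone transcripts 0 were called by limma in either direction, 6 were higher and 0 lower at an unadjusted p under 0.05, and their median log2 difference was 0.06 as deposited and −0.03 after quantile normalization. The unadjusted limit was passed by 9669 of the 33178 tested transcripts in either direction.

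**Figure D5:**
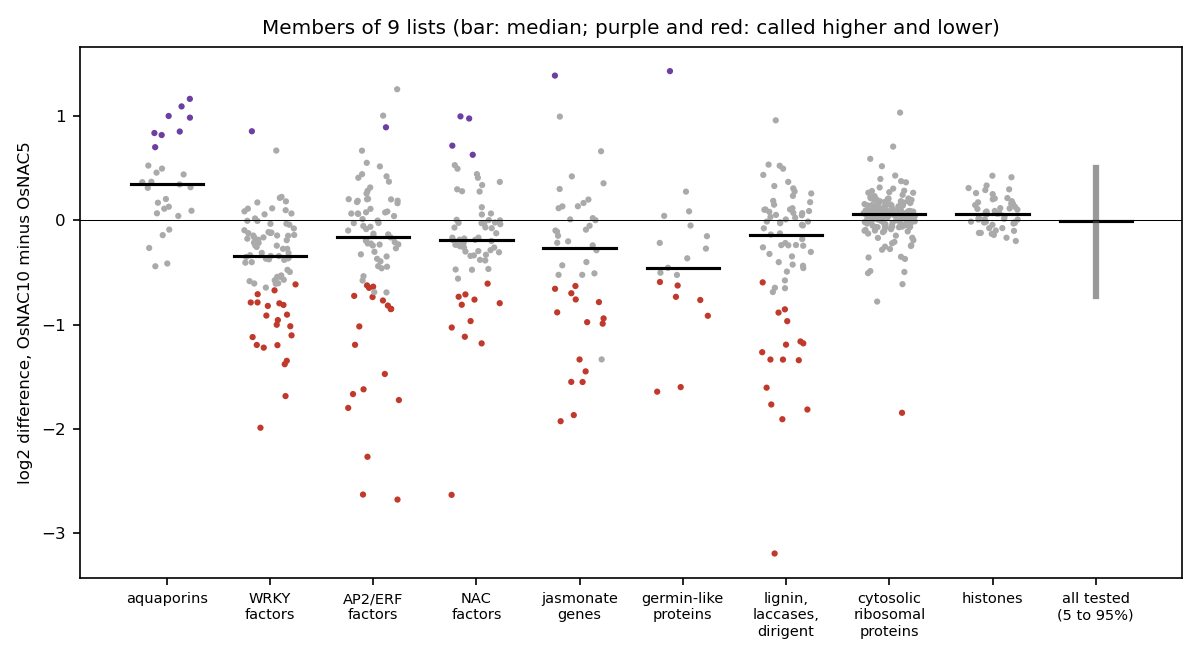
Log2 difference between OsNAC10 and OsNAC5 (y axis) of each tested transcript of 9 lists, with called transcripts in purple (higher) and red (lower), the list median as a black bar, and the 5 to 95% range of all tested transcripts at the right. The aquaporin median lies at 0.34 and that of the WRKY factors at −0.34, while ribosomal proteins and histones lie close to 0.

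A list of 121 bound target loci was set beside the comparison. The list was chosen by the study on these same libraries, so its marks are not independent evidence of a direction. Of the 58 loci marked as raised in OsNAC10 and not in OsNAC5, 16 had a transcript called higher and 1 a transcript called lower, where 2.4% of all tested loci had a higher and 6.15% a lower transcript, and the median log2 difference was 0.38. Of the 23 loci marked as raised in OsNAC5 and not in OsNAC10, 16 had a lower and 1 a higher transcript, with a median of −0.76. Neither of the 2 loci marked in both lines was called.

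Beside OsABI5, the called targets with the largest lower differences were a cupredoxin domain protein and a GAST1-like gene, of a family of small peptides that respond to gibberellin. Os06t0681200-01, the cupredoxin gene on chromosome 6, was read at 8.55 and 9.10 FPKM in OsNAC5, 0.226 and 0.179 FPKM in OsNAC10 and 1.74 and 1.19 FPKM in NT (−3.03 ± 0.13, adjusted p = 2.9e-05). Os03t0760800-01, the GAST1-like gene, was read at 110 and 120 FPKM in OsNAC5, 17.1 and 19.3 FPKM in OsNAC10 and 21.1 and 18.5 FPKM in NT (−2.59 ± 0.14, adjusted p = 5.4e-05). In both genes OsNAC5 was the highest of these 3 groups, but the means in the OsNAC9 line were higher, at 15.1 and 148 FPKM. Among called transcripts, the largest higher differences were in Os03t0146100-05 at 2.27 ± 0.23, the chitinase-like Os05t0247100-01 and a transcript of trehalose-6-phosphate synthase, Os02t0790500-03, at 1.33 ± 0.17. The first and the last were not called when the transcripts of the locus were summed (0.72 and 0.11). Os03t0146100-05 comes from a tonoplast intrinsic protein locus marked as raised in OsNAC5 and not in OsNAC10, so it went against its mark. Another transcript of that locus, Os03t0146100-01, was not called (−0.09). The trehalose-6-phosphate synthase locus was marked as raised in OsNAC10 and not in OsNAC5, and its transcript Os02t0790500-02 was called lower (−0.71). That locus is therefore counted in both directions among the loci so marked. Os05t0247100-01, of glycosyl hydrolase family 18, was read at 107 and 83.4 FPKM in OsNAC5, 339 and 372 FPKM in OsNAC10 and 174 and 172 FPKM in NT (1.90 ± 0.15, adjusted p = 0.00034). The study lists its locus as DIP3, a drought-induced protein and xylanase inhibitor. The word chitinase-like follows the deposited description of another transcript of the locus, Os05t0247100-02, as similar to a chitinase.

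Promoter regions of 1 lower and 1 higher target are shown because they hold different motifs. The capitals mark a match on either strand to the NAC motifs CACG or CATGTG, or to the letters of the abscisic acid response element. That element was searched as ACGTGGC, which contains the first motif on the other strand. The first region precipitated with an antibody against RNA polymerase II in the OsNAC10 line, and the second with the same antibody in the OsNAC9 line. They lie at chr6:28390409-28390590 and chr5:8903834-8903979 of IRGSP-1.0.
Cupredoxin gene Os06g0681200: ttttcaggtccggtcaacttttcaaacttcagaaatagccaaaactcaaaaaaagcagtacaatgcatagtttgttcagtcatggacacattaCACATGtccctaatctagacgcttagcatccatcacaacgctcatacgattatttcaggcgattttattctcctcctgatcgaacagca
Chitinase-like gene Os05g0247100: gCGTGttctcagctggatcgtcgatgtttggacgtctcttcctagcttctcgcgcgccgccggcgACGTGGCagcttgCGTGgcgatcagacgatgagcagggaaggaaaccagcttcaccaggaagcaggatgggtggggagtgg

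Of the 57 promoter regions with the length of the first, 14.0% held CATGTG, and of the 88 with the length of the second, 60.2% held CACG and 7.95% held ACGTGGC. These sets were not split by antibody either. The region of the GAST1-like gene Os03g0760800, of the same length, antibody and line as the second, held 0 matches to the 3 motifs.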

How the data were processed

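RNA-Seq libraries of rice roots were compared between the OsNAC10 and OsNAC5 lines, with 2 independent biological replicates each per the study's methods. Groups and replicate numbers came from the sample titles. The deposited FPKM values were computed by the authors per annotated transcript after removal of adaptors, duplicates and low-quality bases and mapping with TopHat to IRGSP-1.0 with the RAP-DB annotation, and Cufflinks is named for the calls of changed genes only, so the program that gave the FPKM and its version are not given in the sources used here. FPKM are not counts, so tests for counts were not applied, and a second copy of the table was not used. The number of unused sample columns was 0.

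Values were taken as log2(FPKM + 1). The 33178 transcripts above 0 in all 10 libraries were fitted with limma 3.58.1 (R 4.3.3) in 5 groups with an intensity trend, and every adjusted p is from this two-sided fit, adjusted over all tested transcripts. The fit was checked on simulated data. The relative depth was read from the most frequent ratio of values under 0.15 FPKM. Alternatives changed the pseudocount, the filter, the scaling, the libraries in the fit and its options. Leaving out 1 library leaves a line with a single library, which is then assumed to vary like the other groups.

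Members and lists were chosen with earlier results of these data known. The 32 lists were searched for by key words of the annotation's description column, and for 8 lists further words were excluded after the matches had been read. Transcripts were named by rule: in each direction the 12 loci with the largest difference among called transcripts with a mean of at least 1 FPKM, no overlap and a locus sum differing by at least 1.5 fold in the same direction, 1 transcript each; 2 called members per list and direction; the OsNAC genes, OsABI5, RCc3 and, as root markers added to the rule, Lsi1 and Lsi2; the 2 longest runs per direction; and the 3 largest differences among called transcripts of the study's target list per direction. Exceptions are stated. A transcript that the rule names is not reported here. Promoter regions were copied from the study's table of bound loci, of which 618 regions, 280 of them in promoters, were used here. Gene names could not be matched to a reference annotation, and no locus coordinates are given.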

Additional observations from a re-analysis of the deposited data

Results flagged for a closer look

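Of the genes named by rule for their size or identity, those with both libraries of one line above and both of the other below NT were picked out, and the difference itself was tested by the limma contrast between the lines. The position of a line beside NT was not tested, and some gaps to NT were small. For Os10t0552200-01 OsNAC10 was near NT. For Os04t0574700-01 OsNAC10 and NT were both close to 0, and for Os04t0115200-01 OsNAC5 and NT were both low. Higher in OsNAC10 and lower in OsNAC5 than NT were Os07t0442800-01 (log2 difference 6.02), Os04t0115200-01 (4.92), Os10t0552200-01 (3.17), Os10t0381601-01 (2.96), Os02t0765925-00 (2.80), Os02t0765900-00 (2.74) and the OsNAC10 gene Os11t0126900-01 (0.63). Lower in OsNAC10 and higher in OsNAC5 than NT were the aldolase Os08t0120600-01 (−5.77), the alanine aminotransferase Os03t0183600-00 (−4.08), the Rubisco gene Os02t0152400-01 (−4.02), Os07t0153150-02 (−3.98), the transporter Os04t0574700-01 (−3.64), Os05t0368100-00 (−3.54), the glucosyltransferase Os04t0565200-01 (−3.45), the glutamine synthetase Os03t0712800-02 (−3.44), OsABI5 Os01t0859300-01 (−3.25) and the OsNAC5 gene Os11t0184900-02 (−2.63).

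A second group lay outside the test because it was listed at 0 in both libraries of one line, while both libraries of the other were at 1 FPKM or more and above both NT libraries. In OsNAC5 these were the oxalate oxidases Os03t0693900-00 (mean 24.2 FPKM) and Os03t0694000-01 (18.3 FPKM), Os04t0644433-00 (4.16 FPKM) and Os06t0570000-00 (2.05 FPKM). In OsNAC10 they were Os06t0685400-01 (5.61 FPKM), Os09t0273600-00 (2.03 FPKM), Os12t0113600-01 (1.29 FPKM), Os09t0242000-00 (1.26 FPKM) and Os11t0549300-00 (1.21 FPKM). The OsNAC6 and OsNAC9 lines were not used for this selection. Their means were above that of OsNAC5 for both oxalate oxidases, and OsNAC6 (2.21 FPKM) was above OsNAC10 for Os12t0113600-01. A value of 0 in such a table can be a failed estimate, and no fold is given.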

How the results depend on the processing

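The 725 higher calls became 1187 with median centring and 204 at a fold of at least 2, and the 1864 lower calls became 697 at that fold. With single libraries left out, the higher calls ranged from 296 (without OsNAC10 replicate 2) to 526 (without OsNAC10 replicate 1) and the lower calls from 783 (without OsNAC5 replicate 2) to 1673 (without OsNAC10 replicate 1). The other alternatives kept both counts within 1.5 times. In none of the settings compared transcript by transcript did a called transcript change its direction. At the threshold of 1.5 fold the OsNAC5 and OsNAC10 genes stayed called in all settings, and at 2 fold the OsNAC10 gene was not called. With the replicate number as a block, 635 higher and 1607 lower transcripts were called. The deviations of same-numbered OsNAC5 and OsNAC10 libraries correlated at 0.10 over transcripts with a mean of at least 1 FPKM. The labels do not say whether a number marks a shared batch, so it is not known whether same-numbered libraries shared one. Of the 145 other named transcripts, 9 lost their call under the block, between 23 and 42 without single libraries and 13 when transcripts were summed per locus, 1 of them with the sign reversed (nitrate transporter Os10t0554200-02, log2 difference 0.0478). The cause of these changes was not tested. With 2 libraries per line, small differences are the least certain.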

Other observations

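Loci with several annotated transcripts sometimes differed in which transcript was highest. Of 2242 such loci with a summed level of at least 5 FPKM in each of the 4 libraries, the highest transcript was one in both OsNAC5 libraries and another in both OsNAC10 libraries for 122 (5.44%). For 5 of these both transcripts were called, in opposite directions, and 2 of the 5 are described here, chosen after their values were seen. In Os03g0827500, an SPX domain gene of a class that senses phosphate status, Os03t0827500-01 stood at 17.0 and 15.4 FPKM in OsNAC5 and 8.77 and 9.26 FPKM in OsNAC10, and Os03t0827500-02 at 9.55 and 7.90 FPKM and 16.2 and 15.9 FPKM. The summed level of the locus hardly differed (log2 difference 0.01). In Os05g0447200, similar to the auxin influx carrier AUX1, Os05t0447200-01 stood at 4.66 and 4.60 FPKM in OsNAC5 and 2.62 and 2.09 FPKM in OsNAC10, and Os05t0447200-02 at 2.19 and 1.60 FPKM and 5.51 and 5.75 FPKM. These shares rest on the authors' estimation of transcript levels, whose part was not tested.

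The calls were spread over the 12 chromosomes. The share of tested transcripts called higher in OsNAC10 lay between 1.49% on chromosome 8 and 2.97% on chromosome 10, and the share called lower between 4.92% on chromosome 4 and 6.35% on chromosome 12.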
